A study of Mus musculus with 10 samples.

Results

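Many liver-enriched transcription factors keep hepatocytes in their differentiated state. In the livers of Nr1d1 knockout (KO) mice 9 factors were followed here: Onecut1, Onecut2, Hnf4a, Foxa1, Foxa2, Cebpa, Cebpb, Prox1 and Sox9. They are the genes with these symbols in the array annotation, 9 of 19933 genes tested. Each had 1 probe set, named for that gene only. Sox9 differs from the rest in that it marks bile duct cells and only some hepatocytes. Onecut1 fell in KO liver and Sox9 rose, while the other 7 did not pass the test, beside 5.61% called over all genes. The call of Onecut1 was lost in 9 of 18 alternative settings and that of Sox9 in 1. On every array all 9 read above the lower quartile of the array, which lay between 6.00 and 6.11 (log2 intensity).

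The arrays came from 5 wild-type (WT) and 5 KO males, 1 mouse liver per array. All mice were 10 to 12 weeks old, on the C57Bl/6 background, were kept on normal chow under a cycle of 12 h light and 12 h darkness, and were harvested at ZT10, which is 10 h into the light phase. KO mice carried the genotype Nr1d1-/-, from a line backcrossed for 7 or more generations, a genotype of the whole animal rather than of hepatocytes alone. WT mice were bought from a commercial supplier, so genotype and origin of the animals cannot be told apart in any comparison, although the mice were housed and killed together. Nr1d1 itself averaged 9.78 ± 0.16 in the WT and 9.92 ± 0.45 in the KO arrays (SD of log2 intensity, n = 5 each; limma adjusted p = 0.803), by a probe set whose place relative to the deletion is unknown here, so it does not check the genotype. The mean over 9 hepatocyte markers lay between 13.66 and 13.72 on the KO arrays and between 13.68 and 13.72 on the WT arrays. Of these markers 0 passed the test in limma, beside 5.61% called over all genes. At an unadjusted limma p under 0.05 there was 1, beside 17.4% of all genes. These means lie near the top of the intensity range of the arrays, and whether readings flatten there was not tested.

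Rev-erb alpha is a nuclear receptor that represses transcription by recruiting the corepressor NCoR and the histone deacetylase HDAC3. At clock genes it binds DNA itself, whereas at many metabolic genes of the liver it is held by other proteins bound there, among them HNF6, the product of Onecut1. HNF6 belongs to the cut-homeobox factors, and in the developing liver it acts with HNF4 alpha, the FOXA factors and C/EBP alpha in a network in which the factors bind one another's promoters. Which partners change in level when Rev-erb alpha is missing late in the light phase is what the 2 genotypes allow to be asked. All livers were taken at ZT10, so a shifted daily rhythm and a changed mean level cannot be told apart for any gene.

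Promoters of 7 of the 9 genes were found in RefSeq (build GRCm38.p6), as 11 start sites. The 250 bases before each start were searched on both strands for the HNF6 core ATTGAT, for TAGGTCA and TGGGTCA (the ends of the element that Rev-erb and ROR receptors bind), for the RevDR2 element, in which AGGTCA is repeated, for the FOXA motif TGTTTAC and for the E-box CACGTG. Sequences of Onecut1, the factor that tethers Rev-erb alpha, and of the 2 start sites with an HNF6 core are printed 5′ to 3′, with matched letters in capitals.
Onecut1 promoter, chr9:74861671-74861920, plus strand: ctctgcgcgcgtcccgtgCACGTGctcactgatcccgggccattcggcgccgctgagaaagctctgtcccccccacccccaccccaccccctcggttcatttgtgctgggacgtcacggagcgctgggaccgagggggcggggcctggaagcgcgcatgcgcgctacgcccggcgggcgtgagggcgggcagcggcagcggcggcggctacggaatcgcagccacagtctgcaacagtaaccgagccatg
Hnf4a promoter, chr2:163506607-163506856, plus strand: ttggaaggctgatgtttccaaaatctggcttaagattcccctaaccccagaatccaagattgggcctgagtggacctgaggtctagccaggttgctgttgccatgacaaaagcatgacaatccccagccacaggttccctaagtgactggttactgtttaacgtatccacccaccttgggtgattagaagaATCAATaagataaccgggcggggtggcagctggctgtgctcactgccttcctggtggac
Foxa2 promoter, chr2:148046970-148047219, minus strand: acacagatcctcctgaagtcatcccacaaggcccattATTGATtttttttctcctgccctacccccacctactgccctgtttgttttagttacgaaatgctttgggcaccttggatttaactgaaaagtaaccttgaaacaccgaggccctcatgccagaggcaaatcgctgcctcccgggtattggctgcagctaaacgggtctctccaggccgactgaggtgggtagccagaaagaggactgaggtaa
Onecut1 held an E-box, which starts at position -232 from the gene start and is carried by 6.02% of all 32851 promoters of that length. In this window of Onecut1 none of the other motifs searched was found, and its G and C content was 71.6%, against a median of 52.4% over all promoters. Hnf4a held the HNF6 core on the opposite strand at position -59, and Foxa2 held it at position -213, while 6.72% of all promoters hold that core. The Hnf4a site is before 1 of its 2 start sites and the Foxa2 site before 1 of its 3. The printed Hnf4a window runs past the annotated gene start at 163506811, and -59 counts from the start site that follows the window. Of the remaining member promoters, only that of Foxa1 held a motif searched, the FOXA motif at position -141 (carried by 3.17% of all promoters). The letters TAGGTCA were in 2.23%, TGGGTCA in 3.24% and the RevDR2 element in 0.00913% of all promoters, and in 0 of the 11 member windows. A match of letters is a description, not a bound site.

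Onecut1, which encodes HNF6, was 2.40-fold lower in KO liver. Single WT livers read 11.20, 12.29, 12.07, 10.33 and 11.32 (replicates 1 to 5, log2 intensity), and single KO livers 10.21, 10.66, 9.98, 9.86 and 10.17. All 5 KO livers lay below the WT mean and 4 of them below every WT liver, so the groups overlapped by WT replicate 4, which read lower than KO replicate 2. The means were 11.44 ± 0.78 in WT and 10.18 ± 0.31 in KO (SD, n = 5 each), and the limma difference of KO minus WT was -1.26 on the log2 scale (SE 0.30, 95% interval -1.92 to -0.60, adjusted p = 0.0296). Over all genes 5.61% were called and 2.44% were called lower, and 99.7% of genes had a smaller difference than Onecut1. In bulk liver, fewer cells that express a gene and less RNA per cell cannot be told apart.

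The Onecut1 difference kept its direction in all 18 alternative settings and its call in 9 of them. With each array left out in turn the difference ran from -1.54 to -1.05. The call was lost without KO replicate 1 (adjusted p = 0.0569), KO replicate 3 (0.0721), KO replicate 4 (0.0798), KO replicate 5 (0.0567), WT replicate 2 (0.0592), WT replicate 3 (0.0752) or WT replicate 5 (0.0563). Without WT replicate 4, the lowest WT liver, the adjusted p fell to 0.00206 and the difference was -1.54. Without the 3 arrays of widest interquartile range (WT replicate 1, KO replicates 4 and 5) the difference was -1.22 and the adjusted p was 0.183, and with array weights they were -1.11 and 0.0556.

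**Figure D1:**
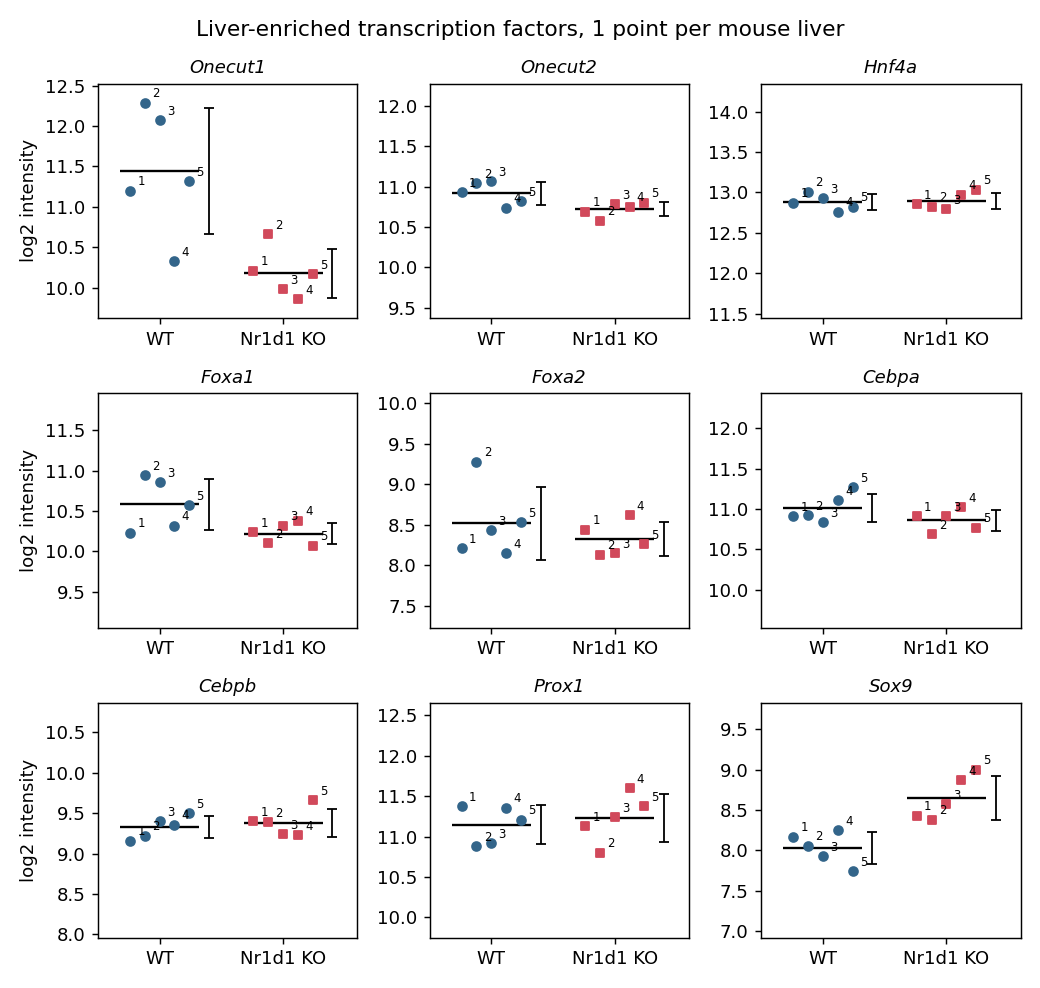
Log2 intensity (vertical axes, all spanning the same number of log2 units) of the 9 factors in single WT (circles) and KO (squares) livers, numbered by replicate; horizontal lines are group means and the bars beside them 1 SD to each side. Onecut1 shows the widest WT spread, from 10.33 to 12.29, and Sox9 is the only factor of the 9 whose groups do not overlap.

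WT livers differed more from one another in Onecut1 than in nearly any other gene. Its WT readings spanned 1.96 on the log2 scale, and the WT SD was larger than that of 99.9% of genes tested. KO livers spanned 0.81, with an SD larger than that of 98.4% of genes. WT replicates 2 and 3, the livers with most Onecut1, had interquartile ranges of 2.93 and 2.81, and WT replicate 4, with least, had 2.89. The part of array quality in this spread was not tested.

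Onecut2, a cut-homeobox factor like HNF6, read 10.93, 11.04, 11.07, 10.74 and 10.82 in WT and 10.69, 10.58, 10.78, 10.75 and 10.80 in KO. Only 2 KO livers lay below every WT liver, although all 5 lay below the WT mean. The difference was -0.20 (SE 0.071, 95% interval -0.36 to -0.05), with an unadjusted p of 0.014 and a limma adjusted p of 0.137, so it did not pass over all genes. Onecut3, the remaining Onecut gene, gave 0.02 (adjusted p = 0.936).

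Foxa1 and Foxa2 encode forkhead pioneer factors, which open chromatin at liver enhancers. Foxa1 read 10.23, 10.94, 10.86, 10.32 and 10.57 in WT and 10.24, 10.10, 10.32, 10.38 and 10.07 in KO. The 3 highest readings were WT livers, but WT replicates 1 and 4 lay among the KO livers. The difference was -0.36 (SE 0.13, 95% interval -0.64 to -0.08, unadjusted p = 0.0156, limma adjusted p = 0.146). Foxa2 read 8.21, 9.28, 8.43, 8.15 and 8.53 in WT and 8.44, 8.13, 8.15, 8.62 and 8.26 in KO, and WT replicate 2 stood 0.75 above the next WT liver. Its difference of -0.20 (SE 0.18, 95% interval -0.60 to 0.20, adjusted p = 0.698) was within the spread between livers, and without WT replicate 2 it was -0.01. Foxa3, the third FOXA gene and not among the 9, did fall: WT livers read 10.56, 10.90, 10.81, 10.27 and 10.52 and KO livers 9.92, 9.92, 9.54, 10.00 and 10.10, with no overlap. Among all genes the groups did not overlap in 7.00%. The Foxa3 difference was -0.71 (SE 0.12, limma adjusted p = 0.00476) and stayed called in all 18 alternative settings (adjusted p up to 0.0283).

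Hnf4a, the nuclear receptor that drives most hepatocyte genes, read 12.87, 13.01, 12.93, 12.76 and 12.82 in WT and 12.85, 12.82, 12.79, 12.97 and 13.03 in KO. The groups covered almost the same range, and the difference of 0.01 (SE 0.063) had a 95% interval from -0.12 to 0.15 (limma adjusted p = 0.955). Its sign changed with the setting. The whole interval lies closer to 0 than the Onecut1 interval, although the difference between these 2 genes was not tested.

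Cebpa and Cebpb encode bZIP factors of liver metabolism and of the acute response. Cebpa read 10.91, 10.92, 10.84, 11.11 and 11.27 in WT and 10.91, 10.69, 10.91, 11.02 and 10.77 in KO, a difference of -0.15 (SE 0.087, 95% interval -0.34 to 0.04, limma adjusted p = 0.424). Cebpb read 9.16, 9.22, 9.40, 9.36 and 9.50 in WT and 9.40, 9.39, 9.24, 9.23 and 9.66 in KO, a difference of 0.06 (SE 0.088, 95% interval -0.13 to 0.25, adjusted p = 0.846). The groups overlapped widely in both genes.

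Prox1, a homeobox factor of hepatocytes and of lymphatic endothelium, read 11.38, 10.88, 10.92, 11.36 and 11.21 in WT and 11.13, 10.80, 11.24, 11.60 and 11.38 in KO. KO livers held both the lowest and the highest reading. The difference was 0.08 (SE 0.14, 95% interval -0.23 to 0.39, limma adjusted p = 0.864).

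Sox9, an HMG-box factor that marks bile duct cells and some hepatocytes next to the portal vein, rose 1.54-fold in KO liver. WT livers read 8.17, 8.06, 7.93, 8.25 and 7.74 and KO livers 8.43, 8.38, 8.57, 8.87 and 9.0. The lowest KO liver stood 0.14 above the highest WT liver, and among all genes the groups did not overlap in 7.00% (3.99% with KO higher). The means were 8.03 ± 0.20 and 8.65 ± 0.27 (SD, n = 5 each), a limma difference of 0.62 (SE 0.13, 95% interval 0.34 to 0.90, adjusted p = 0.0129). Over all genes 3.17% were called higher. The call was kept when any single array was left out (differences of 0.53 to 0.69, adjusted p up to 0.0382). KO replicates 4 and 5, the KO livers with most Sox9, are also among the 3 arrays of widest interquartile range, and without those 3 arrays the difference was 0.47 and the adjusted p 0.0666. The part of array quality in this result was not tested. Sox9 lies on chromosome 11, and its distance from the targeted Nr1d1 gene was not worked out here. An effect of DNA carried along with the deletion therefore cannot be told apart from loss of Rev-erb alpha.

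Of 8 markers of bile duct cells measured besides Sox9, 0 passed the test in limma (0 at an unadjusted p under 0.05), a number too small to set apart from the 5.61% called over all genes. They had differences from -0.11 to 0.11 and a median of 0.01. Their mean level ran from 6.64 to 6.80 in WT livers and from 6.65 to 6.79 in KO livers. Of the keratins and adhesion molecule that define the cell type, chosen for mention after their values were seen, Krt19 gave -0.02 (adjusted p = 0.954), Krt7 gave -0.11 (0.576) and Epcam gave -0.01 (0.976). Cftr lay below the lower quartile on all arrays. The table has no detection calls, so that any of these markers is expressed above background is not shown. Of 41 genes in 7 lists for macrophages, sinusoidal and lymphatic endothelium, stellate cells, lymphocytes, erythroid and pancreatic acinar cells, 0 passed in limma and 6 had an unadjusted p under 0.05, beside 5.61% and 17.4% of all genes. Their differences ran from -0.59 to 0.42, with a median of 0.02. By list the median ran from -0.05 in macrophages to 0.16 in sinusoidal endothelium, where 7 of 8 estimates were positive. The -0.59 was that of a stellate cell gene and the 0.42 that of a lymphatic endothelium gene.

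**Figure D2:**
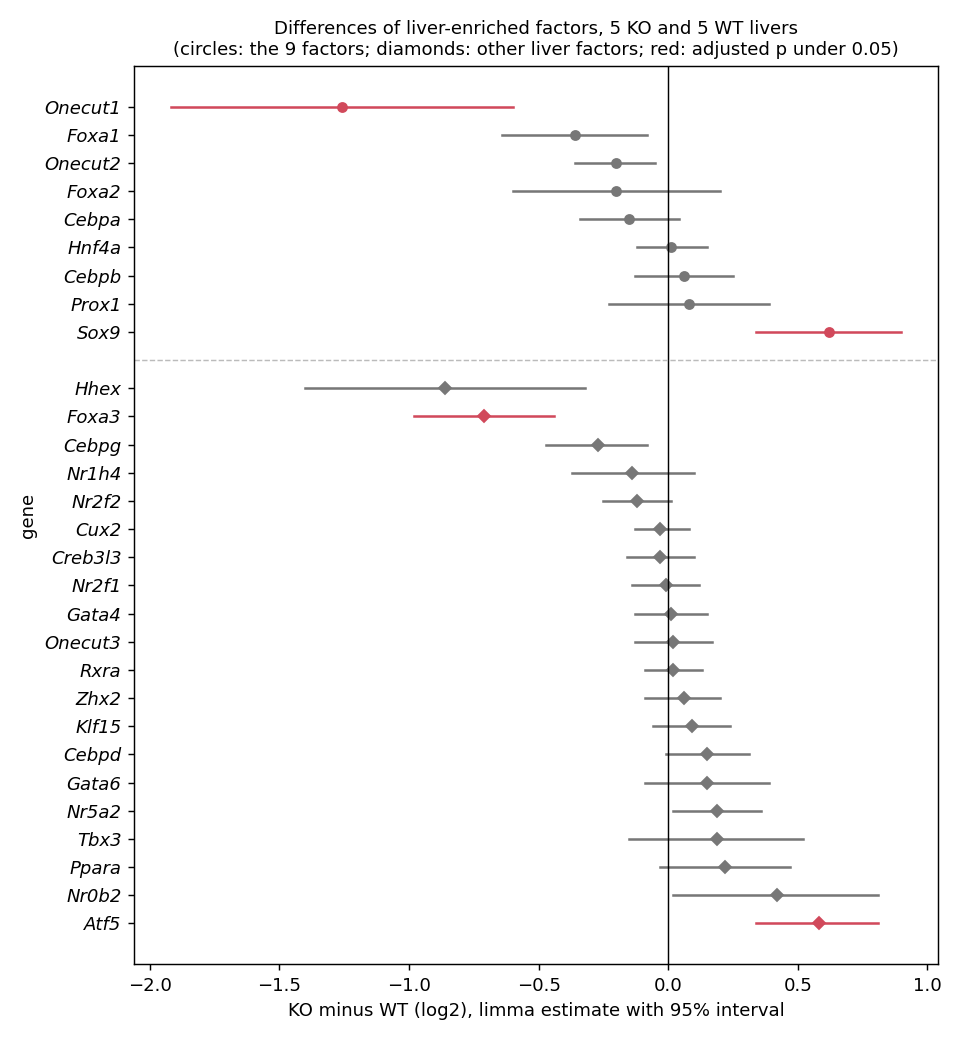
Limma differences of KO minus WT (horizontal axis, log2) with 95% intervals for the 9 factors (circles) and 20 other liver-enriched factors (diamonds), red where the adjusted p was under 0.05. Onecut1 at -1.26 lies farthest from 0, Sox9 (0.62) and Atf5 (0.58) lie to the right and Foxa3 (-0.71) to the left, and of the factors not called, the intervals of Foxa1, Onecut2, Hhex, Cebpg, Nr5a2 and Nr0b2 exclude 0.

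Counted together, 2 of the 9 factors were called, 1 higher and 1 lower, against 5.61% of all genes, and the median difference of the 9 was -0.15 against 0.008 over all genes. At an unadjusted p under 0.05 there were 4 of the 9, Onecut1, Onecut2, Foxa1 and Sox9, against 17.4% of all genes. The estimate was negative for 5 factors and positive for 4. Leaving out single arrays left 1 or 2 factors called, and without the 3 arrays of widest interquartile range 0 were called in limma, with 4 at an unadjusted p under 0.05.

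Of 20 other liver-enriched factors measured, Foxa3 fell, Atf5 rose and 18 did not pass, beside 5.61% called over all genes, and their median difference was 0.02. Atf5, a bZIP factor of the stress response that is abundant in liver, read 8.65, 8.72, 8.62, 8.51 and 8.51 in WT and 9.25, 8.92, 9.44, 8.88 and 9.40 in KO, a difference of 0.58 (SE 0.11, limma adjusted p = 0.00699) with no overlap. Over all genes the groups did not overlap in 7.00%. Hhex, a homeobox factor of liver and bile duct development, had the largest difference among the 18 not called, -0.86 (SE 0.25, limma adjusted p = 0.0683). It was called without WT replicate 1 (0.0119), with array weights (0.0455) and without the 3 arrays of widest interquartile range (0.0281). Nr0b2, the bile acid-induced corepressor SHP, gave 0.42 (adjusted p = 0.255, but 0.0394 without KO replicate 1), and Cebpg gave -0.27 (0.115, but 0.0201 without WT replicate 4).

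Among nuclear receptors of the list, Nr5a2 gave 0.19, Ppara 0.22, Nr1h4, the bile acid receptor FXR, -0.14, Nr2f2 -0.12, Rxra 0.02 and Nr2f1 -0.01. The GATA factors Gata4 and Gata6 gave 0.01 and 0.15. Cebpd gave 0.15, Tbx3 0.19, Klf15 0.09, Zhx2 0.06, Creb3l3 -0.03 and Cux2, a cut-homeobox gene that is female-biased in liver, -0.03. None of these passed in limma, and of them only Nr5a2 had an unadjusted p under 0.05 (0.0354).

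Of 17 hepatocyte genes known to be driven by these factors, Igfbp1 rose, Cyp7a1 fell and 15 did not pass, beside 5.61% called over all genes. Igfbp1, an insulin-repressed binding protein of growth factors, had a WT mean of 9.28 ± 1.04 and a KO mean of 10.91 ± 0.57 (SD of log2 intensity, n = 5 each), and differed by 1.63 (SE 0.43, limma adjusted p = 0.0459). Its call held only without KO replicate 4, WT replicate 3 or WT replicate 4 when single arrays were left out (adjusted p up to 0.103 without another), and it was lost without the 3 arrays of widest interquartile range (0.183). Cyp7a1, which catalyses the first step of the classical bile acid pathway, differed by -0.93 (SE 0.24, adjusted p = 0.0379) and kept its call only without KO replicate 1, KO replicate 2 or WT replicate 2 (up to 0.0885 without another). That call was also lost with array weights (0.0713) and without the 3 arrays (0.227). Of 12 lipid storage genes linked to Rev-erb alpha and HDAC3 in liver, Cd36, Lpl, Plin4, Plin5 and Mogat1 rose and 7 did not pass, beside 3.17% called higher over all genes. This list was chosen with earlier results of these data known, so its share of called genes is only a description. Mogat1 averaged 5.85 in WT, under the lower quartile of each array. The median difference of that list was 0.30, and its mean level ran from 8.68 to 8.75 in WT and from 8.96 to 9.34 in KO livers.

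**Figure D3:**
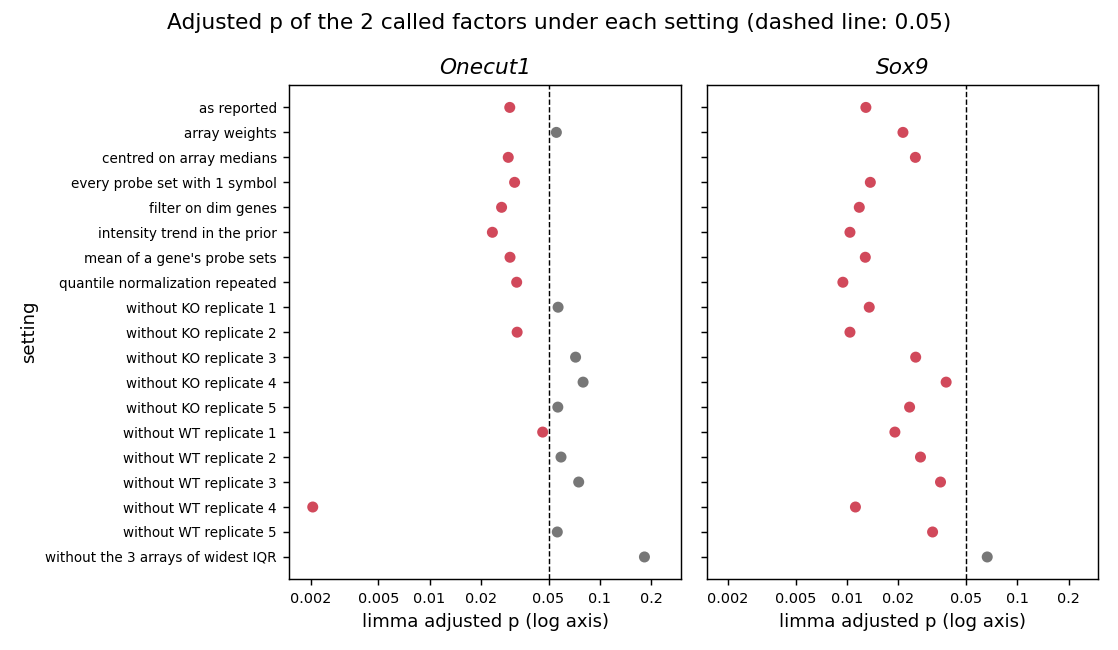
Limma adjusted p (horizontal axes, log scale) of Onecut1 and Sox9 as reported and under 18 alternative settings (vertical axis), red where under 0.05 (dashed line). Onecut1 crosses the line in 9 settings, with a highest adjusted p of 0.183, and Sox9 in 1, at 0.0666.

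The WT livers with most and least Onecut1 also stood high and low for several partners. WT replicate 2 was the highest WT liver for Onecut1, Foxa1, Foxa2 and Hnf4a, and WT replicate 4 the lowest for Onecut1, Onecut2, Foxa2 and Hnf4a. For Prox1 WT replicates 2 and 3 were the lowest WT livers, and KO replicate 2, with most Onecut1 among KO livers, had least Prox1 of all. In deviations from the genotype mean over the 10 arrays, Pearson's r with Onecut1 was 0.64 for Foxa1, 0.56 for Onecut2, 0.56 for Foxa2, 0.51 for Hnf4a, 0.03 for Cebpb, -0.41 for Sox9, -0.60 for Cebpa and -0.78 for Prox1. Without WT replicates 2 and 4, the arrays farthest from the median of Onecut1, r was 0.29 for Foxa1 and 0.05 for Onecut2. It was -0.26 for Foxa2 and -0.01 for Hnf4a, so these positive relations rest on those 2 livers. Without the same livers r was -0.87 for Prox1, -0.66 for Cebpa, -0.42 for Sox9 and 0.37 for Cebpb. In log2 values, which hold the genotype difference, r was -0.63 for Prox1, -0.78 for Sox9 and 0.03 for Cebpa. Without WT replicates 2 and 3, the farthest by that measure, these were -0.29, -0.83 and 0.30. These are descriptions: the points share the arrays and their normalization, and 10 arrays hold few degrees of freedom.

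**Figure D4:**
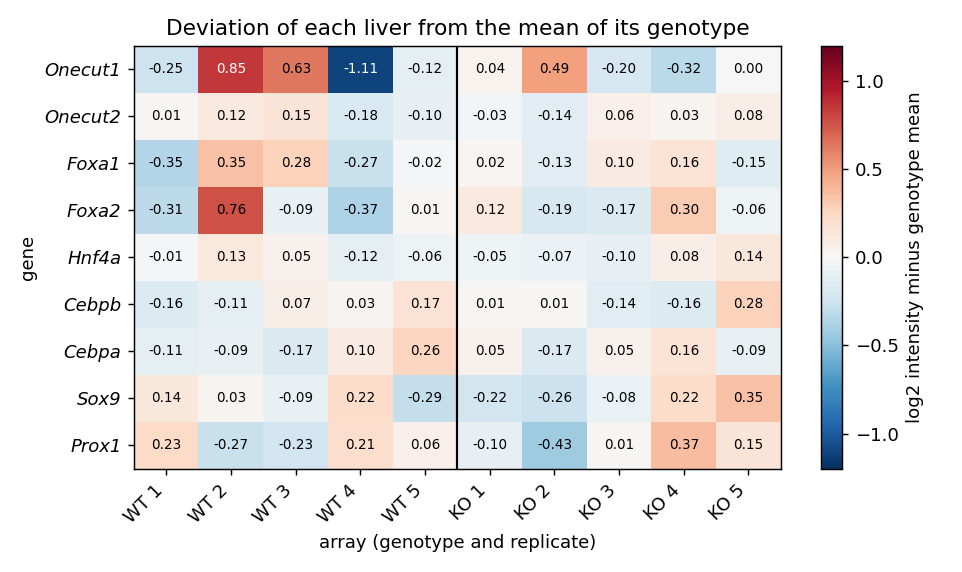
Deviation of each liver (columns) from the mean of its genotype for the 9 factors (rows), in log2 units, with red above and blue below the mean. The Onecut1 row has the widest range, from -1.11 in WT replicate 4 to 0.85 in WT replicate 2. The Prox1 row has the opposite sign in WT replicates 1 to 5 and in KO replicates 1 to 4, though by only 0.01 in KO replicate 3. In KO replicate 5 Onecut1 lay almost at its group mean.

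Among 14892 genes brighter than the lower quartile, those most like Onecut1 in deviations from the genotype mean were Lifr (r = 0.94), the cytokine receptor subunit for LIF, Mcm10 (0.93), a DNA replication factor, Trip10 (0.93), Zfp747 (0.91) and Sipa1 (0.91). In log2 values over the 10 arrays they were Trip10 (0.97), Mcm10 (0.97), Lifr (0.96), Tle1 (0.96), a Groucho-type corepressor, and Ccp110 (0.95). Without the 2 arrays farthest from the median of Onecut1 these values ran from 0.71 to 0.85 for the first 5 and from 0.86 to 0.92 for the second 5. All were picked as the highest of 14892 values of r over only 10 arrays. Among so many, high values can arise without any relation, and how high was not tested. The values without 2 arrays come from the same picked genes, so they do not remove this limit. Log2 values hold the difference between the genotypes, so a gene picked by that measure tends to be lower in KO as Onecut1 is, and the differences of Tle1 (-0.32) and Ccp110 (-0.27), picked by it alone, are descriptions. Lifr (-0.57, limma adjusted p = 0.00404), Mcm10 (-0.73, 0.00646) and Trip10 (-0.26, 0.0497), which were also picked by deviations from the genotype mean, fell, but their livers deviate with those of Onecut1, so they are no independent support for its fall. Zfp747 (0.11) and Sipa1 (-0.09) did not pass. Trip10 kept its call only without WT replicate 4 among the arrays left out singly (adjusted p up to 0.117 without another), and lost it with array weights (0.0713) and without the 3 arrays of widest interquartile range (0.196). Without those 3 arrays the adjusted p of Lifr was 0.0577 and that of Mcm10 0.0684. Onecut2 and Foxa1, the members most like Onecut1 in log2 values, ranked 356 and 280 by that measure (r = 0.79 and 0.80). Without WT replicates 2 and 3, the arrays farthest from the median of Onecut1 by this measure, their r was 0.36 and 0.27.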

How the data were processed

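Livers of 5 WT and 5 KO mice were hybridized singly to Affymetrix Mouse Gene 1.0 ST arrays, per the labels' protocols. The authors deposited normalized intensity values on a linear scale (27541 probe sets, 8.93 to 18280); per the submitters' processing notes the tools were RMA and Partek, and filters are not given in the sources used here. RMA evens out arrays, so a shift shared by most genes would not be seen. Log2 was taken of the deposited intensity. Of the probe sets, 21631 had 1 symbol in the annotation table of the array, 1317 several and 4593 none. The probe set of highest mean stood for each gene, giving 19933 genes. Genotypes came from the labels, and replicates were numbered in accession order.

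The genotypes were compared in R 4.3.3 with lmFit and eBayes of limma 3.58.1, two-sided, with Benjamini-Hochberg adjustment over all genes and calls at an adjusted p under 0.05. The p-values set the difference between genotypes against the spread between mice, which eBayes moderates with the spread of all genes. The fit was tested on simulated data with known changes. The number of arrays limits the precision, and signal over background is unknown.

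Named were Nr1d1, all members, all called genes of the lists, all other liver-enriched factors, and the 5 genes of highest Pearson r with Onecut1 by each measure (clone and model names left out). Members, lists, rules and alternatives were chosen with earlier results of these data known. Alternatives were other ways to summarise probe sets, a filter on dim genes, median centring, repeated quantile normalization, a trended prior, array weights, and arrays left out. Promoter sequences are from RefSeq, build GRCm38.p6, whose relation to the array annotation's build is not known.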

Additional observations from a re-analysis of the deposited data

How the results depend on the processing

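No paired analysis was possible because the replicate numbers were given in accession order and pair no WT with a KO mouse. Over 18 alternatives, the count of genes called (1119) lay between 805 and 1254, except for 527 without the 3 arrays of widest interquartile range, a fit with fewer arrays. The 2 factors called became 1 with array weights and 0 without those 3 arrays, and 1 to 2 when single arrays were left out. Onecut1 stayed negative throughout (-1.54 to -1.05 with single arrays left out, -1.11 with array weights, -1.22 without the 3 arrays), and its call was lost in 9 settings. The cause of these losses was not tested.

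Signs changed only in genes that were never called. Hnf4a gave -0.00095 with array weights and -0.06 without the 3 arrays, and Prox1 -0.02 and -0.04. Without the 3 arrays Cebpb gave -0.02, Cux2 0.02, Gata6 -0.01 and Krt19 0.01. With single arrays left out Nr1d1 ran from -0.02 to 0.29, Hnf4a from -0.02 to 0.05, Cebpb from -0.01 to 0.10, Prox1 from -0.01 to 0.19, Cux2 from -0.05 to 0.01, Gata4 from -0.02 to 0.06, Rxra from -0.01 to 0.04, Nr2f1 from -0.06 to 0.01, Onecut3 from -0.02 to 0.06, Epcam from -0.04 to 0.03 and Krt19 from -0.07 to 0.03. Of 845 pairs of a named gene and a setting, 757 kept direction and call, 51 lost the call, 6 gained it and 31 changed sign. Without the 3 arrays the calls of Sox9 (adjusted p = 0.0666), Cyp7a1 (0.227), Igfbp1 (0.183), Plin4 (0.088), Lifr (0.0577), Mcm10 (0.0684), Trip10 (0.196) and Tle1 (0.162) were also lost. With array weights those of Cyp7a1 and Trip10 were lost (0.0713 each), and Trip10 also lost its call with every probe set tested (0.0521), a trended prior (0.0545) and repeated quantile normalization (0.0563).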
